A study of Homo sapiens with 6 samples.

Results

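The 10 genes described here are keratins that breast cancer cell lines are known to carry, namely KRT7, KRT8, KRT18, KRT19, KRT15, KRT16, KRT17, KRT80, KRT81 and KRT86. They were taken by gene symbol, with earlier results of these data known, from a table of 58735 genes that holds 55 functional keratin genes. Their RNA was compared between MDA-MB-231 cells and Adriamycin-resistant (ADRr) cells derived from them, with 3 libraries in each group. MDA-MB-231 is an established human triple-negative breast cancer (TNBC) line, which lacks hormone receptors and HER2 amplification. Adriamycin (ADR) is doxorubicin, an anthracycline that traps topoisomerase II on DNA.

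The parent libraries carry the genotype label WT. The ADRr cells were selected by the authors in rising doses of ADR and then taken as single clones by limiting dilution, so that selection by the drug and the choice of a clone cannot be told apart. The dose in the medium at harvest is not given in the sources used here. The series record speaks of 3 time points that the sample labels do not name, and no label says that the libraries of a group came from separate cultures, so p-values measure only the spread between these libraries. Total counts per library ranged from 15983985 to 18272314, and a count of 0 at these depths allows up to 3 counts, which covers counting error only. In bulk RNA, fewer cells with a transcript and less of it per cell cannot be told apart.

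Keratins build the intermediate filaments of epithelial cells. Each filament needs a type I keratin (here KRT15, KRT16, KRT17, KRT18 and KRT19) paired with a type II keratin (KRT7, KRT8, KRT80, KRT81 and KRT86). KRT8 with KRT18 is the first pair of simple epithelia, KRT7 and KRT19 join it in ducts and glands, KRT15 to KRT17 belong to basal or stressed epithelium, and KRT81 and KRT86 belong to the hair shaft but also occur in breast cancer cells.

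The line was checked against its markers first. The mesenchymal genes VIM, FN1, CD44, AXL, CAV1 and ZEB1 were present in every library, whereas 5 of the 12 luminal markers, ESR1, PGR, FOXA1, AGR2 and TFF1, held at most 2 counts in any library. The other 7 luminal markers were expressed, with 1339 to 4331 counts of XBP1, 882 to 2303 of ERBB2, 442 to 568 of GATA3, 152 to 492 of EPCAM and 108 to 259 of CDH1. Both groups thus lacked the hormone receptors, and the keratins were read beside mesenchymal and some luminal genes. Of the other mesenchymal markers, CDH2 was low with 9 to 36 counts and SPARC was near the floor with 1 to 9 counts.

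ADRr cells held less keratin RNA than parent cells. Of the 10 members, 8 had enough counts to be tested with edgeR's quasi-likelihood test, and a call required both an adjusted p no higher than 0.05 and a change of 1.2-fold or more. Of these 8, 6 fell (KRT7, KRT8, KRT18, KRT19, KRT80 and KRT81), where 29.6% of all 15242 tested genes were called lower. None was called higher, by edgeR or by DESeq2, and none had a positive change at an unadjusted p under 0.05. Of all tested genes, 29.2% were called higher. KRT86 and KRT15 were not called, and KRT16 and KRT17 had too few counts to be tested. The median log2 fold change of the 8 tested members was -0.77, beside -0.0061 over all tested genes. In 7 of the 8, every ADRr library was below every parent library, an order that 34.7% of all tested genes showed. In none was every ADRr library above every parent library, the order of 34.5% of all tested genes. Calls in either direction were made for 6 of the 8 and for 58.8% of all tested genes.

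**Figure D1:**
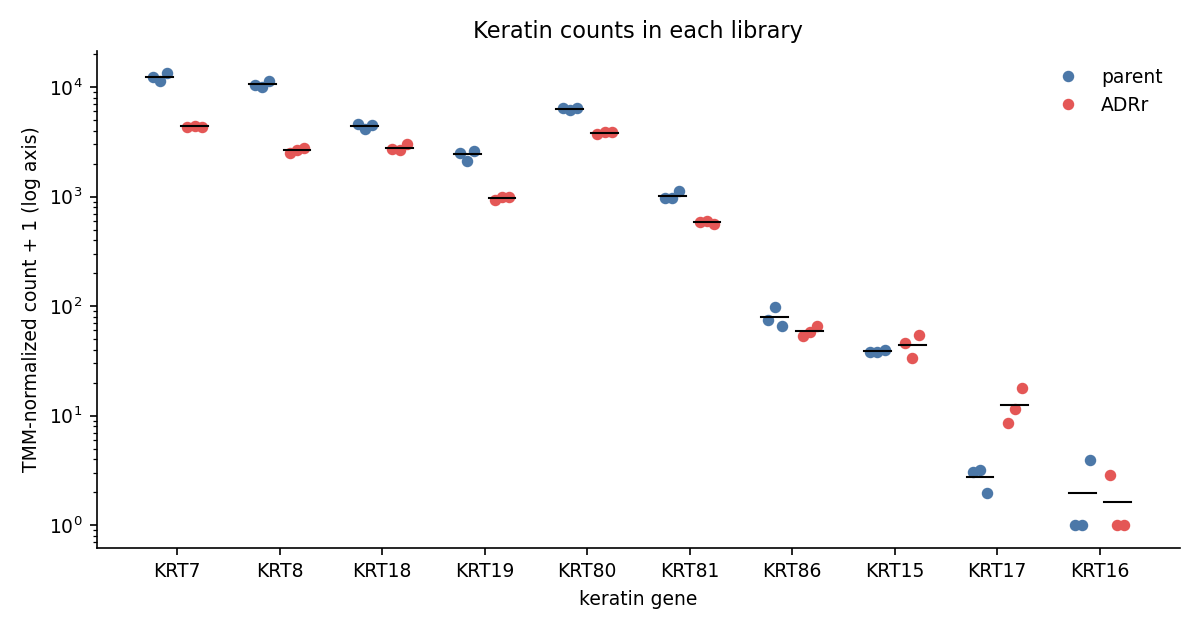
TMM-normalized counts plus 1 (log axis) of the 10 keratin genes in each library, with 3 parent (blue) and 3 ADRr (red) libraries per gene and a black line at each group's mean. The ADRr points lie below all parent points for KRT7, KRT8, KRT18, KRT19, KRT80, KRT81 and KRT86, overlap them for KRT15 and KRT16, and lie above them for KRT17 at very low counts.

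The simple-epithelial keratins carried most of the keratin RNA. All 4 of them fell, with a median log2 fold change of -1.41, and KRT8, KRT7 and KRT19 had the lowest values of the members, whereas KRT80 and KRT81 were lower than KRT18. KRT8, the type II keratin of the first simple-epithelial pair, lies on chromosome 12 at 52897187 to 52949954 on the minus strand (GRCh38). Its normalized counts were 10442, 9962 and 11326 in parent replicates 1 to 3 and 2506, 2639 and 2769 in ADRr replicates 1 to 3. The highest ADRr library was thus far below the lowest parent library. KRT8 fell to 24.9% of the parent level, with a log2 fold change of -2.00 ± 0.056 (SE, n = 3 libraries per group, edgeR adjusted p = 2.0e-18). Only 1.91% of the tested genes had a log2 fold change as low or lower.

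KRT7, the type II keratin of ducts and glands (chromosome 12, 52232520 to 52252186, plus strand), was the most abundant keratin of both groups per unit of length. It had 12253, 11331 and 13345 normalized counts in the parent libraries and 4323, 4446 and 4333 in the ADRr libraries. The ADRr libraries were closely alike, and all were below the parent libraries. KRT7 fell to 35.5% of the parent level (log2 fold change -1.50 ± 0.055, edgeR adjusted p = 2.2e-16).

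KRT19, a type I keratin that lacks the tail domain of the others, lies on chromosome 17 at 41523617 to 41528308 on the minus strand. The parent libraries held 2519, 2117 and 2635 normalized counts and the ADRr libraries 930, 983 and 987. Parent replicate 2 was the lowest of its group and was still more than any ADRr library. KRT19 fell to 39.9% of the parent level (log2 fold change -1.33 ± 0.072, edgeR adjusted p = 2.2e-13).

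KRT18, the type I partner of KRT8, is the neighbour of KRT8 on chromosome 12 (52948871 to 52952901, plus strand) and fell least of the 4. Its normalized counts were 4594, 4184 and 4462 in parent cells and 2708, 2684 and 3018 in ADRr cells. The groups did not overlap. KRT18 kept 63.5% of the parent level (log2 fold change -0.65 ± 0.057, edgeR adjusted p = 8.2e-10). KRT8 and KRT18 share 525 exonic bases on opposite strands, which are 7.63% of the exonic bases of KRT8 and 16.3% of those of KRT18. The strand setting of the counting is not given in the sources used here, so reads in that stretch cannot be told apart if strand was not used.

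KRT80 is a type II keratin of many epithelia (chromosome 12, 52168996 to 52192000, minus strand). It had 6447, 6216 and 6432 normalized counts in the parent libraries and 3746, 3917 and 3865 in the ADRr libraries. Both groups were tight and stood apart. KRT80 fell to 60.4% of the parent level (log2 fold change -0.73 ± 0.048, edgeR adjusted p = 7.4e-12), close to the fall of KRT18.

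The hair keratins KRT81 and KRT86 are type II genes of chromosome 12 whose loci overlap on opposite strands (KRT81 at 52285913 to 52291534 on the minus strand, KRT86 at 52249300 to 52309163 on the plus strand) without sharing an exonic base. Their coding sequences are near copies, identical at 94.2% of 1457 aligned bases. The longest run that both coding sequences have in common is 605 bases. In all, 25.6% of the 150-base windows along the KRT81 transcript and 22.1% of those along the KRT86 transcript occur in the other gene. How reads with several matches were counted is not given in the sources used here, so the split between both genes is uncertain in those stretches.

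KRT81 had 963, 979 and 1114 normalized counts in the parent libraries and 587, 595 and 563 in the ADRr libraries, with no overlap. It fell to 57.1% of the parent level (log2 fold change -0.81 ± 0.075, edgeR adjusted p = 2.7e-09). KRT86 was far scarcer, with 73.1, 97.4 and 65.3 normalized counts in parent cells and 52.3, 56.5 and 64.4 in ADRr cells. Its ADRr libraries were all below its parent libraries, but by a narrow margin. KRT86 was not called (log2 fold change -0.44 ± 0.21, edgeR adjusted p = 0.069). Without parent replicate 3 it was called lower (log2 fold change -0.56, edgeR adjusted p = 0.031), and without any other single library it was not called, with the weakest value without parent replicate 2 (-0.26, edgeR adjusted p = 0.30). The raw counts of KRT86 were 5.86 to 9.94% of those of KRT81 in parent cells and 8.91 to 11.4% in ADRr cells.

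The basal and stress keratins were scarce in both groups. KRT15, a type I keratin of basal epithelium and hair follicle stem cells (chromosome 17, 41513743 to 41522529, minus strand), had 37.0, 36.8 and 39.0 normalized counts in the parent libraries and 44.7, 32.4 and 53.2 in the ADRr libraries. The groups overlapped. KRT15 was not called (log2 fold change 0.21 ± 0.26, edgeR adjusted p = 0.48).

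KRT17, a type I keratin of basal and wounded epithelium (chromosome 17, 41619441 to 41624842, minus strand), had raw counts of 2, 2 and 1 in parent cells and 8, 10 and 18 in ADRr cells. Every ADRr library held more than any parent library. The ratio of the summed counts, each divided by the TMM-scaled library totals, was 6.84 (exact 95% interval 2.67 to 22.3, for counting error only). KRT17 did not pass the filter on low counts. Without that filter it was called higher (log2 fold change 2.68, edgeR adjusted p = 0.0017). It also passed the filter and was called higher when parent replicate 1, 2 or 3 or ADRr replicate 1 was left out, with log2 fold changes of 2.40 to 2.92. It passes the filter in those fits only through the ADRr libraries, where it is high, so these calls are no further support. The level stayed very low in ADRr cells, at 0.213 ± 0.087 FPKM (SD, n = 3; FPKM is the fragment count divided by gene length and library size).

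KRT16, a type I keratin of wounded epithelium (chromosome 17, 41609778 to 41615899, minus strand), had raw counts of 0, 0 and 3 in parent cells and 2, 0 and 0 in ADRr cells. Both groups were at or under the floor of 3 counts per library, so no fold is given. A difference in KRT16 was not detectable at this depth.

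Among the other 45 functional keratins, 36 had no count in any library and 2 were tested. KRT10, a type I keratin of the upper epidermis, had 612, 534 and 722 normalized counts in parent cells and 441, 572 and 365 in ADRr cells. It was called lower (log2 fold change -0.45 ± 0.12, edgeR adjusted p = 0.0031), though the groups overlapped. KRT34, a type I hair keratin, had 19.6, 18.4 and 25.3 normalized counts in parent cells and 36.2, 39.8 and 48.6 in ADRr cells. It was called higher (log2 fold change 0.97 ± 0.29, edgeR adjusted p = 0.0062), the only one of the 10 tested keratin genes that was.

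**Figure D2:**
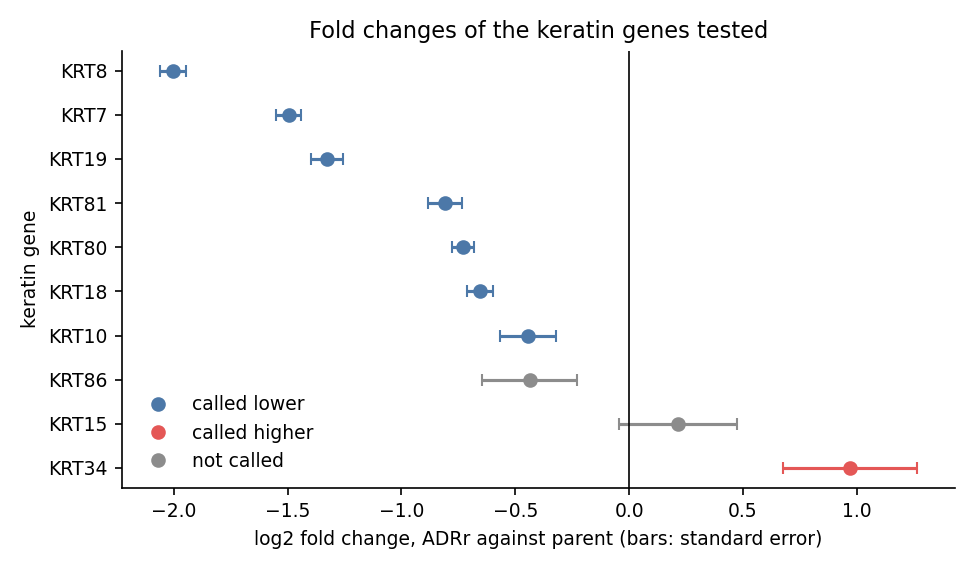
Log2 fold change of ADRr against parent cells (x axis) for the 10 keratin genes tested, with bars of 1 standard error and colours for the edgeR call. KRT8 is lowest at -2.00 and KRT34 is highest at 0.97, and KRT86 and KRT15 (grey) were not called.

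KRT79, a type II keratin that was named after its values were seen, had no count in any parent library and 6, 6 and 15 counts in ADRr cells. The exact 95% interval of the ratio of its summed counts, scaled in the same way as those of KRT17, starts at 6.49, for counting error only. It was not tested. The other keratins above 3 counts in some library were KRT33B, KRT39 and KRT222, none of which was tested or held more than 9 counts in a library.

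The question of how the keratin pool was made up was addressed with FPKM, which divides by gene length and so allows levels to be compared between genes. Summed over all functional keratins, parent cells held 531 ± 33.8 FPKM and ADRr cells 241 ± 5.52 FPKM (SD, n = 3 each). ADRr cells therefore had 0.453 times the parent sum, and the libraries of the groups did not overlap. The 10 members made up 96.7 ± 0.27% of this sum in parent cells and 94.2 ± 1.0% in ADRr cells. In raw counts, keratin genes took 0.219 ± 0.013% of a parent library and 0.0931 ± 0.0021% of an ADRr library.

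In sum, type II keratins lost more than type I keratins. Their summed FPKM went from 375 ± 22.4 to 153 ± 2.62, which is 0.407 times the parent sum. The type I sum went from 156 ± 12.4 to 88.1 ± 3.04, or 0.566 times. Gene by gene the types overlapped, with type I KRT19 at 39.9% and KRT18 at 63.5% of the parent level. Of type II, KRT8 was at 24.9%, KRT7 at 35.5%, KRT81 at 57.1% and KRT80 at 60.4%. Since keratins pair type I with type II, the ratio of both sums was computed in each library, and it was 2.42 ± 0.094 in parent cells and 1.74 ± 0.036 in ADRr cells. The ranges of that ratio (2.32 to 2.50 and 1.70 to 1.77) did not overlap. For a single value such as this, 3 against 3 libraries allow no exact permutation p below 0.1.

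**Figure D3:**
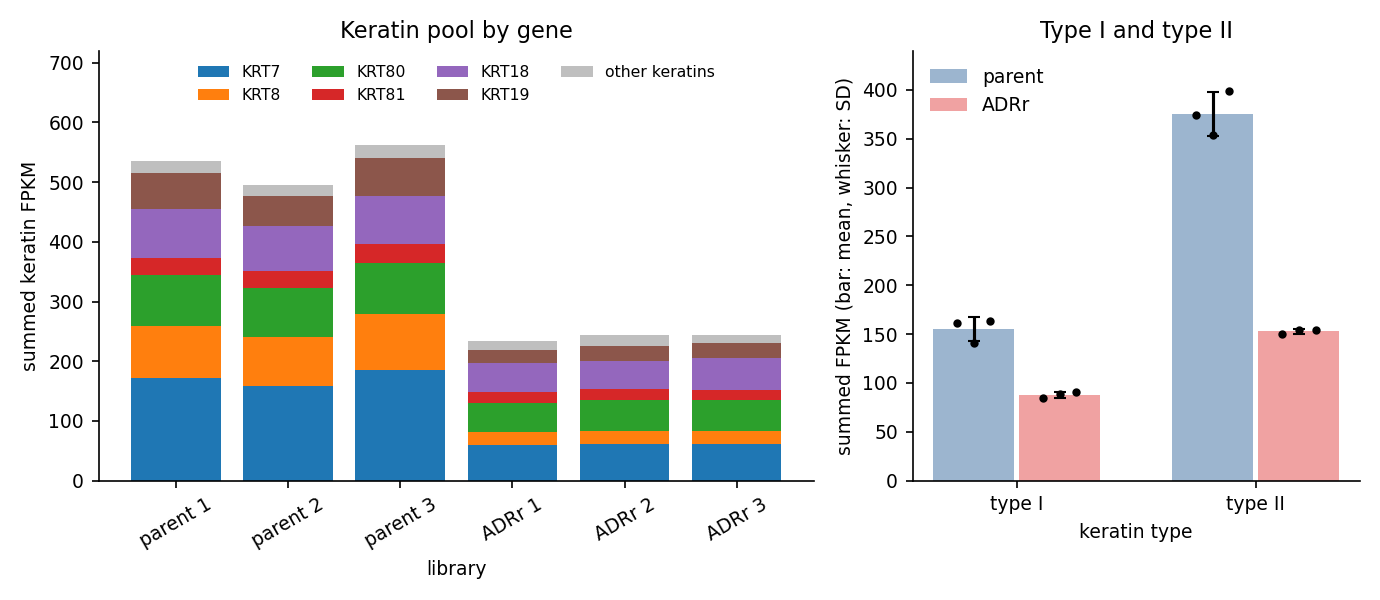
Left, summed FPKM of all functional keratins in each library as bars stacked by gene. Right, the type I and type II sums with bars at the mean of 3 libraries, whiskers of 1 SD and points for libraries. The sum is 495 to 562 FPKM in parent and 234 to 244 FPKM in ADRr libraries, and the type II bar shrinks more than the type I bar.

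The order of the members changed accordingly. By FPKM, parent cells held KRT7 (172 ± 13.9) at the top, followed by KRT8 (87.9 ± 5.62), KRT80 (83.6 ± 1.78) and KRT18 (78.4 ± 3.84). The ranges of KRT8 and KRT80 overlapped, as did those of KRT80 and KRT18. Within each parent library, however, KRT8 was above KRT80 and KRT80 above KRT18 at the table's gene lengths, and these differences were not tested. KRT19 (59.3 ± 6.64), KRT81 (30.2 ± 2.39), KRT86 (1.88 ± 0.40) and KRT15 (0.304 ± 0.0090) followed without overlap, and KRT17 and KRT16 came last with overlapping values under 0.1.

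In ADRr cells KRT7 (61.2 ± 0.80) was still at the top, but KRT80 (50.7 ± 1.11) and KRT18 (50.0 ± 3.44) came next with overlapping libraries. KRT19 (23.7 ± 0.79) and KRT8 (22.0 ± 1.13) overlapped behind them, so that KRT8 moved from the second to the fifth place by the table's gene lengths. KRT81 (17.3 ± 0.45) and KRT86 (1.38 ± 0.15) kept their places. KRT15 (0.353 ± 0.086) and KRT17 (0.213 ± 0.087) overlapped, and KRT16 was last. Among all genes of the table, KRT8 ranked 396 by mean FPKM in parent cells and 2124 in ADRr cells, and KRT7 ranked 151 and 640.

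As shares of the keratin sum, KRT8 went from 16.5 ± 0.26% to 9.13 ± 0.30% and KRT7 from 32.3 ± 0.61% to 25.4 ± 0.47%. In contrast, KRT18 went from 14.8 ± 0.64% to 20.7 ± 1.2% and KRT80 from 15.8 ± 0.75% to 21.0 ± 0.12%. KRT81 went from 5.69 ± 0.29% to 7.19 ± 0.29%, and KRT19 from 11.1 ± 0.60% to 9.85 ± 0.10%. The shares of KRT18, KRT80 and KRT81 were thus higher in ADRr cells although their levels fell. For each of these 6 genes the libraries of both groups did not overlap in share at the table's gene lengths. Shares depend on the length given to each gene and were not computed at other lengths. The small gap of KRT19 may therefore rest on the lengths used.

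Ratios within a library were then compared for 6 pairs of members. The FPKM of KRT8 over that of its partner KRT18 was 1.06, 1.11 and 1.19 in parent cells and 0.433, 0.460 and 0.429 in ADRr cells. KRT8 was thus above KRT18 in every parent library and below it in every ADRr library. The log2 ratio differed by -1.35 (two-sided exact permutation p = 0.1, the smallest possible, and 0.12 after Benjamini-Hochberg adjustment over the 6 pairs). The share of exonic bases that both genes have in common bears on these values if strand was not used.

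The ratio of KRT18 to KRT19, both type I, went from a geometric mean of 1.33 to 2.10, and that of KRT80 to KRT7, both type II, from 0.488 to 0.828. KRT8 over KRT7 went from 0.512 to 0.359. KRT7 over KRT19 moved least of the pairs whose groups stood apart, from 2.90 to 2.58. These 4 ratios did not overlap between groups and had the same exact permutation p of 0.1, adjusted 0.12. KRT81 over KRT86 was 16.3 in parent cells and 12.5 in ADRr cells with overlapping libraries (two-sided exact permutation p = 0.3, adjusted 0.3).

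**Figure D4:**
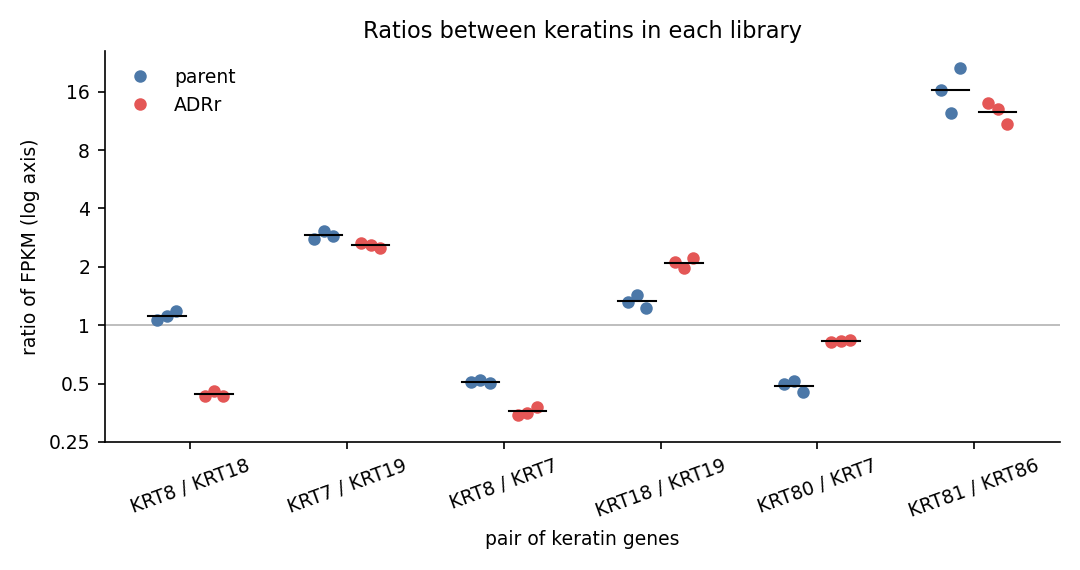
Ratio of FPKM (log axis) for 6 pairs of keratin genes in each library, with 3 parent (blue) and 3 ADRr (red) points per pair and a black line at each geometric mean. KRT8 over KRT18 goes from 1.12 to 0.440 and KRT18 over KRT19 from 1.33 to 2.10 with no overlap, whereas KRT81 over KRT86 overlaps.

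The FPKM of a gene depends on the length given to it, and the table's length of KRT8 (6881 bases) is the union of all its exons, whereas its principal transcript has 2126 bases. With principal transcript lengths, KRT8 over KRT18 was 1.76 in parent cells and 0.692 in ADRr cells, so it still crossed 1. KRT80 was then below KRT18 in both groups (94.3 and 162 in parent cells, 57.1 and 103 in ADRr cells, in FPKM rescaled to these lengths). KRT8 then held the second place in parent cells (284) and the third in ADRr cells (71.2), above KRT80 and KRT19 (39.9), so its fall to the fifth place rests on the table's length. Fold changes of single genes are not touched by the length.

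KRT7 has an antisense gene, KRT7-AS, which shares 282 exonic bases with it, or 6.89% of the exonic bases of KRT7. KRT7-AS fell with KRT7 (log2 fold change -1.77 ± 0.19, edgeR adjusted p = 2.3e-08). Its raw counts were 1.31 to 1.73% of those of KRT7 in parent cells and 0.924 to 1.62% in ADRr cells, and reads of both cannot be told apart without strand.

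KRT8 and KRT18 have many processed pseudogenes, copies without introns spread over the genome, and the table lists 50 for KRT8 and 67 for KRT18. Of all 147 keratin pseudogenes, 3 were tested. KRT8P12 on chromosome 3, identical to KRT8 at 90.5% of aligned coding bases, had raw counts of 62, 49 and 56 in parent cells and 105, 91 and 96 in ADRr cells. It rose where KRT8 fell (log2 fold change 0.73 ± 0.18, edgeR adjusted p = 0.0014). KRT8P3, identical at 97.1%, fell as KRT8 did (log2 fold change -2.03 ± 0.53, edgeR adjusted p = 0.0020) at 12 to 15 counts in parent and 2 to 4 in ADRr libraries. KRT8P3 passed the filter on low counts only through the parent libraries, where it is high, so its call is no further support. KRT87P, a hair keratin pseudogene, was not called (log2 fold change -0.53 ± 0.36, edgeR adjusted p = 0.20). KRT8P14, with as many counts in all as KRT8P3, was not tested.

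The counts of all KRT8 pseudogenes together were 0.834 to 1.07% of those of KRT8 in parent cells and 4.62 to 5.28% in ADRr cells. For KRT18 they were 0.415 to 0.543% and 0.743 to 1.48%. Adding the pseudogenes to the keratin sum gave an ADRr to parent ratio of 0.461 in place of 0.453.

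Intermediate filaments outside the keratin family fell as well. Of 8 tested, 6 fell and 1 rose (29.6% and 29.2% of all tested genes), with a median log2 fold change of -0.90. VIM, the mesenchymal filament protein that MDA-MB-231 cells carry beside keratins, fell by 0.56 on the log2 scale (SE 0.047, edgeR adjusted p = 4.4e-10), a smaller value than those of the 6 keratins called, though the differences between genes were not tested. Its FPKM was 97.7 ± 2.92 in parent cells and 66.5 ± 1.33 in ADRr cells, so VIM per summed keratin FPKM went from 0.185 ± 0.017 to 0.276 ± 0.0056. The nuclear lamins LMNB1 (log2 fold change -2.03), LMNB2 (-1.16) and LMNA (-0.65) fell, as did NES (-1.66), the nestin of progenitor cells, and SYNM (-1.23), a filament linker. GFAP, the filament of astrocytes, rose (1.16) from a level of 0.244 FPKM.

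Genes that bind, process or modify keratins mostly fell. Of 11 partners tested, 7 fell and 1 rose, with a median log2 fold change of -0.70, where 29.6% of all tested genes were called lower and 29.2% higher. EPPK1, 1 of the 7, held only 17, 21 and 23 raw counts in parent and 11, 5 and 11 in ADRr libraries. It passed the filter on low counts only with the parent libraries, where it is high, so its call is no further support for a fall. The 3 with the largest fall were TGM2 (log2 fold change -1.82), a transglutaminase, FAM83H (-1.48), an organizer of keratin filaments, and CASP6 (-1.27), a caspase that cleaves KRT18. SFN, the 14-3-3 protein of epithelial cells, rose (1.59).

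Genes of the junctions that anchor keratin filaments were called in both directions. Of 16 desmosome and hemidesmosome genes tested, 6 rose and 7 fell, with a median log2 fold change of -0.13, where 29.2% of all tested genes were called higher and 29.6% lower. PLEC (log2 fold change -0.85), JUP (-0.64) and EVPL (-0.63), which link filaments to junctions, fell. DSP (1.10), the main keratin anchor of the desmosome, DSG2 (0.89), its cadherin, and ITGB4 (1.11), the integrin subunit of hemidesmosomes, rose. DSP thus went from 9.90 to 21.3 FPKM while KRT8 and KRT18, which it anchors in simple epithelia, fell.

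Of 13 factors that act on epithelial genes, 6 rose and 1 fell, beside the same 29.2% and 29.6% of all tested genes, with a median log2 fold change of 0.10. ESRP1 (log2 fold change 3.57), an epithelial splicing factor, KLF4 (2.56) and TFAP2C (2.46) rose most, although ESRP1 had only 1.71 normalized counts on average in parent cells. ESRP1 and TP63, another of the 6, passed the filter on low counts only through the ADRr libraries, where they are high. Their calls are thus no further support for a rise. ELF3 (-1.97), a factor of simple epithelia, fell.

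Markers of breast cell state moved both ways, where 29.6% of all tested genes were called lower and 29.2% higher. Of the luminal markers tested, 3 of 7 fell, namely MUC1 (log2 fold change -3.24), ERBB2 (-1.24) and CDH1 (-1.07), and EPCAM (1.10) and XBP1 (1.40) rose. Of the mesenchymal markers tested, 4 of 7 fell, with CDH2 (-1.59), CAV1 (-1.30), AXL (-0.62) and VIM, and FN1 (0.32), CD44 (0.80) and ZEB1 (1.04) rose. CDH2 was low, with raw counts of 24, 36 and 32 in parent and 9, 12 and 11 in ADRr libraries. It passed the filter on low counts only with the parent libraries, where it is high, so its call is no further support for a fall. The fall of the simple-epithelial keratins was therefore found beside luminal and mesenchymal markers that fell and others that rose.

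Of the cornified envelope genes, 3 of 15 listed were tested and 1 fell, FLG (log2 fold change -1.97), while IVL and LOR had no count. SPRR2A and SPRR2D, envelope proteins named after their values were seen, had no count in parent cells and raw counts of 14, 3 and 16 and of 13, 10 and 7 in ADRr cells, and were not tested. Among skin keratinocyte markers, 2 of 11 were tested and both fell (FLG and KRT10), and KRT1, KRT2 and KRT5 had no count in any library. Among 8 leukocyte markers, LAPTM5 (log2 fold change 0.68) and CORO1A (1.27) rose, and the summed level of the list was 53.5 to 57.6 CPM (counts relative to the library's sum) in parent and 89.6 to 95.4 CPM in ADRr libraries. PTPRC and CD3E, which define leukocytes, held at most 2 counts in a library and TYROBP held none. Among 8 stromal markers, PDGFRB (-2.90) and LUM (-0.67) fell and KDR (1.07) rose, with a summed level of 69.4 to 71.7 CPM in parent and 19.6 to 20.9 CPM in ADRr libraries, and DCN had no count. The part of other cells in the keratin values was not tested.

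The keratin genes lie in a pair of clusters, so the tested protein-coding genes next to each cluster were listed, 5 on each side. The cluster on chromosome 12 (52168996 to 52952901, 27 keratin genes of which 6 were tested) holds KRT7, KRT8, KRT18, KRT80, KRT81 and KRT86. Of its 10 neighbours 5 rose, 2 fell and 3 were not called, with a median log2 fold change of 0.25. ACVRL1 (log2 fold change 2.69), SLC4A8 (2.19), ATG101 (0.56), ACVR1B (0.55) and IGFBP6 (0.31) rose, and NR4A1 (-0.85) and TNS2 (-0.76) fell. EIF4B (-0.23), SPRYD3 (0.19) and CSAD (-0.45) were not called. The standard errors of ACVRL1 (0.45), NR4A1 (0.36) and SLC4A8 (0.31) were large beside the median of 0.096 over all tested genes. The 5 members called in this cluster thus fell between neighbours of which 5 rose and 2 fell. Of all tested genes, 29.2% were called higher and 29.6% lower, so most genes anywhere were not called lower.

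The cluster on chromosome 17 (40654665 to 41624842, 28 keratin genes of which 4 were tested) holds KRT15, KRT16, KRT17 and KRT19. Of its 10 neighbours 8 fell, 1 rose and 1 was not called, with a median log2 fold change of -1.27. The shares over all tested genes were 29.6% called lower and 29.2% called higher. TOP2A, which encodes a target of anthracyclines, fell (log2 fold change -2.19), as did TNS4 (-2.19), IGFBP4 (-1.90), SMARCE1 (-0.62), JUP (-0.64), P3H4 (-2.20), FKBP10 (-2.32) and NT5C3B (-0.56). EIF1 (0.28) rose, and RARA (-0.15) was not called. FKBP10 and TNS4 had large standard errors, at 0.63 and 0.31. Inside the cluster, TMEM99 (-0.62) fell, which shares 56 exonic bases with KRT10 on the other strand. KRT19 (-1.33) therefore fell among falling neighbours, whereas KRT34 (0.97), in the same cluster, rose.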

How the data were processed

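RNA of 3 parent and 3 ADRr libraries was analysed from whole-number counts per gene that the authors deposited without normalization, and from the FPKM values the authors made from the counts by dividing by gene length and library size. According to the methods, polyadenylated RNA was selected, made into libraries with the CORALL kit and read from both ends on a NovaSeq (Illumina), whereas the sample records name another kit and another amount of RNA. The submitters' processing notes list fastp, HISAT2 2.0.5, featureCounts 1.5.0-p3, DESeq2 1.20.0 and GRCh38 (hg38). Strandedness and the handling of reads with several matches are not given in the sources used here. Start and end of all 204 genes with a symbol of KRT and a number were those of GENCODE 29.

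The software was edgeR 4.0.16 and limma 3.58.1 under R 4.3.3. The 15242 genes kept by filterByExpr were TMM-normalized (factors 0.987 to 1.01) and compared with edgeR's quasi-likelihood test, with Benjamini-Hochberg adjustment over all of them. The test was also run on simulated counts with few changed genes and the same dispersion for every gene. In the real data 58.8% of the tested genes were called, so that run does not measure the error rate here. Standard errors of the log2 fold changes were worked back from each fold change and the F statistic of its test. They had a median of 0.096. The other 43493 genes were not tested. Replicates differed by more than sampling noise (chi-square per degree of freedom 2.60 to 8.41), so none was merged. FPKM sums and ratios were taken per library, and ratios of pairs were compared on the log2 scale by two-sided exact permutation tests. Count ratios with few counts have exact conditional binomial intervals.

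The genes named were all members, the other tested keratins, the 3 keratin pseudogenes with the most counts, the 3 largest rises and falls among called genes of each list with VIM and LMNA, markers of other cells above 1 CPM, and the 5 nearest tested genes on each side of both clusters. Names outside this rule were chosen after their values were seen. The members and lists were chosen with earlier results of these data known. Lists are described by counts and medians only.

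Alternatives were DESeq2's size factors, library size alone, DESeq2 1.42.0, protein-coding genes only, no filter or a minimum of 10 counts per library, limma-trend on log2(FPKM + 1) or log2(FPKM + 0.1), a replicate block, each library left out, other call rules, and other sets or lengths for the FPKM sums. The principal transcript lengths and the sums over the members alone were chosen after seeing the data. Some sequences and genes that the lists cover are not reported here.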

Additional observations from a re-analysis of the deposited data

How the results depend on the processing

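KRT7, KRT8, KRT18, KRT19, KRT80 and KRT81 kept their direction and stayed called in every alternative fit, except that KRT18, KRT80 and KRT81 did not pass the stricter fold rule given next, and their log2 fold changes stayed at -1.56 to -1.44, -2.05 to -1.95, -0.71 to -0.62, -1.42 to -1.27, -0.75 to -0.70 and -0.85 to -0.74. With a call rule of 1.2 or more on the log2 scale in either direction, 3 members were called lower and, of all genes, 1114 were called higher and 972 lower, in place of 4451 and 4507. Without any filter on low counts 1 member, KRT17, was called higher, and on log2(FPKM + 1) without a filter its change was only 0.23, where the pseudocount is above its level. Leaving out each library in turn gave 6 to 7 members called lower, 0 to 1 (KRT17) called higher, 4297 to 4483 genes called higher and 4375 to 4610 lower, an ADRr to parent ratio of summed keratin FPKM of 0.439 to 0.467, and a change of the type II to type I ratio by a factor of 0.703 to 0.731. The member gained among those called lower was KRT86, whose log2 fold change ranged from -0.56 to -0.26. Over the members alone, the ratio of summed FPKM was 0.442 at the table's gene lengths and 0.404 at principal transcript lengths, and the factor for type II over type I was 0.755 and 0.650, beside 0.453 and 0.718 over all functional keratins.

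The deviations of same-numbered libraries from their group means correlated at 0.0074, -0.021 and -0.046. Libraries of unlike number gave -0.034 to 0.055. No pairing by replicate number was thus seen, but with 3 libraries per group these values cannot exclude it. With the replicate block 6 members were called lower and 0 higher, and 4406 genes were called higher and 4464 lower. Depth limits KRT16, KRT17, KRT79 and KRT86, whose counts are low.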
